A study of Mus musculus with 6 samples.

Results

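The surfactant and lamellar body genes are 10 listed genes of the mouse lung, Sftpa1, Sftpb, Sftpc, Sftpd, Abca3, Lamp3, Napsa, Slc34a2, Scd1 and Lpcat1, out of 31053 genes in the count tables. They were chosen by name, and all 10 were found. Their levels were described in 2 single-cell libraries of whole lung at embryonic day (E) 18.5, and 4 libraries of sorted cells were used for comparison. Surfactant is the film of lipid and protein that lowers surface tension in the alveoli, and alveolar type 2 (AT2) cells make it. AT2 cells store it in lamellar bodies, organelles related to lysosomes, and release it at birth. Some of the surfactant proteins are also made by airway secretory cells, and several of the enzymes and transporters are used by other tissues.

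In these mice DsRed was knocked into exon 1 of Cxcl12, so that 1 allele reports the gene and 2 alleles remove it. One whole-lung library was labelled as the homozygous null (Cxcl12 DsRed/DsRed) and the other as the heterozygous control (Cxcl12 DsRed/+). The sorted libraries were heterozygous Cxcl12-DsRed+ cells of lungs at postnatal day (P) 8 and at 3 embryonic ages (E13.5, E15.5 or E18.5), sorted against EpCAM and CD45. The sorted libraries were pools of lungs. Every group had 1 library, so a difference between libraries has no replicate check and the genotype cannot be told apart from the library. All intervals cover counting error at 95% only.

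The libraries held 63746333 to 117522172 UMIs, the unique molecular identifiers that mark single RNA molecules, and 7448 to 12726 cells passed the limits on genes and mitochondrial RNA. Cxcl12 went against the whole-lung labels: the endothelial cells of the library labelled null had 576 CPM (counts scaled to a total of 1000000 UMIs) and those of the library labelled control 5.26 CPM, beside 718 to 1230 CPM in the sorted endothelial cells. The libraries are therefore called by their labels, and no direction is given by genotype. A total of 140 cell barcodes occurred in both whole-lung libraries, and 1 and 7 of them were among the epithelial cells used here. SoupX, which subtracts free RNA, had removed 18.1% of the UMIs of the library labelled null and 40.0% of those of the library labelled control.

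Cells were classed by UMIs of fixed genes: epithelial cells by at least 1 UMI of Epcam, endothelial cells by 2 of Pecam1 and Cdh5, mesenchymal cells by 2 of Pdgfra, Pdgfrb and Tcf21, and immune cells by 2 of Ptprc and Laptm5. Cells of more than 1 class were set aside. This left 402 and 567 Epcam cells, 2558 and 1612 endothelial cells, 4450 and 3848 mesenchymal cells, and 624 and 549 immune cells in the libraries labelled null and control. All 8 epithelial markers were at 10 CPM or more in the Epcam cells, and Epcam was at 0 in the endothelial and mesenchymal cells by the gate. The sequencing read 1 tag from the 3′ end of each molecule, so CPM were compared between genes without division by length.

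The upstream sequences of 4 members are shown because these genes differ in how far their RNA extended outside the epithelium, as the levels below give. They were chosen from those levels, so a contrast among their sequences is a description. RefSeq (GRCm38.p6) held a sequence of 250 bases before to 50 after the start for 6 of the 10 members. Capitals mark strings found on either strand. TATAAA resembles the TATA box and TGTTTAC a forkhead site. CTCAAG resembles an NKX2-1 site and TTGCNNAA a C/EBP site, while GGGCGG resembles the GC box. They were not tested for binding. Sftpb is at chr6:72304360-72304659, plus strand, and Lamp3 at chr16:19706316-19706615, minus strand. Abca3 is at chr17:24351773-24352072 and Lpcat1 at chr13:73466981-73467280, both on the plus strand.
Sftpb: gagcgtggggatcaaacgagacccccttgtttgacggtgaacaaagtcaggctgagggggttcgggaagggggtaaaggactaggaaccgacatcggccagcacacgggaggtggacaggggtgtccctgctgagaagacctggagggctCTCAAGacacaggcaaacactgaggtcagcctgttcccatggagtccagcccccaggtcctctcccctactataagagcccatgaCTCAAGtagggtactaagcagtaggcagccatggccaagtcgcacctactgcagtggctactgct
Lamp3: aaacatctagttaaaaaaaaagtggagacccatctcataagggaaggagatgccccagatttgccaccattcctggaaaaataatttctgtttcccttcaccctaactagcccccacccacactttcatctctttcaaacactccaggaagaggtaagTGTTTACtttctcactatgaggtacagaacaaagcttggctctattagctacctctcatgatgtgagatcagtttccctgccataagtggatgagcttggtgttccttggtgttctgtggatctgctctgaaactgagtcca
Abca3: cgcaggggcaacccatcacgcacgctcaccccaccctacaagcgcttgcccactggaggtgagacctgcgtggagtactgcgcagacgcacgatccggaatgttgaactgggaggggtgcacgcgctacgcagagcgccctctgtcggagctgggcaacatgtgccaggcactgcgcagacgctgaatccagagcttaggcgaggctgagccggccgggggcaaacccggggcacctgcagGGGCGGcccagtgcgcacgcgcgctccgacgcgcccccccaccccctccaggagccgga
Lpcat1: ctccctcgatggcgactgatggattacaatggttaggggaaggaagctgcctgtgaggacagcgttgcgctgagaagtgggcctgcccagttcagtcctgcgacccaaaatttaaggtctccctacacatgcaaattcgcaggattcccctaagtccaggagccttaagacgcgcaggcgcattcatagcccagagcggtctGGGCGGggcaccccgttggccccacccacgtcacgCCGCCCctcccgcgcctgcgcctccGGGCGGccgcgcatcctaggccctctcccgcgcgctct

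The Sftpb window held CTCAAG at positions -100 and -15 from the start, a string found in 15.9% of the 32851 windows of 300 bases in the table. The Lamp3 window held TGTTTAC at position -92, found in 3.65% of windows. Abca3 held GGGCGG at position -9 and Lpcat1 held it 3 times counting both strands, a string found in 35.7% of windows. Lamp3 had 0 CpG and Sftpb 8, while Lpcat1 had 25 and Abca3 29, against a median of 7 over all windows. Slc34a2, with 30 CpG and TTGCNNAA at position -48, and Sftpa1, with 5 CpG, TATAAA at -30 and CTCAAG at -166, were the other members with a sequence. Slc34a2 had the most CpG of these members but was at 1.11 and 1.61 CPM in endothelial cells, against 41.7 and 49.7 CPM for Abca3. CpG number thus did not go with the extent of RNA in every member. The Slc34a2 window, chr5:53049103-53049402, lies inside the gene span given below, so its start is not the first base of that span. The starts of Abca3, Lpcat1, Lamp3 and Sftpa1 also differ from the first base of their spans on the strand of the gene. Positions such as -9 in Abca3 are counted from the RefSeq start.

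Sftpc, which encodes the hydrophobic surfactant protein C and is a classic marker of AT2 cells, was by far the most abundant member in the Epcam cells. It lies at chr14:70520949-70524081 on the minus strand (GRCm38, GENCODE M21; all positions below are from this annotation). Its level was 38221 CPM (38084 to 38360) in the library labelled null and 44506 CPM (44372 to 44641) in the library labelled control, which is 3.82% and 4.45% of all UMIs of these cells. Sftpa1 (chr14:41131782-41136452, plus strand) and Sftpd (chr14:41172214-41185149, minus strand), which encode collectins of host defence, lie 35761 bases apart. Sftpa1 was at 1573 and 1930 CPM, and Sftpd was lower, at 298 and 290 CPM. Sftpb (chr6:72304610-72314371, plus strand), which encodes the surfactant protein B that packs lipid in lamellar bodies, was at 1755 and 1853 CPM.

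The lamellar body genes were lower in level than Sftpc, Sftpa1 and Sftpb. Abca3 (chr17:24351950-24410201, plus strand), the transporter that brings lipid into lamellar bodies, was at 221 CPM in the library labelled null and 288 CPM in the library labelled control. Lamp3 (chr16:19653378-19706375, minus strand), a membrane protein of these organelles, was at 164 and 175 CPM. Napsa (chr7:44572380-44586862, plus strand), an aspartic protease that processes surfactant protein B, was at 488 and 418 CPM. Slc34a2 (chr5:53038081-53071664, plus strand), the phosphate transporter of the AT2 surface, was at 431 and 408 CPM. The lipid enzymes were Lpcat1 (chr13:73467197-73516422, plus strand), which remodels phosphatidylcholine, at 286 and 377 CPM, and Scd1 (chr19:44394455-44407879, minus strand), a fatty acid desaturase, at 69.6 and 53.6 CPM. Scd1 was the lowest member in both libraries. Abca3, Napsa and Slc34a2 overlap annotated RNAs on the opposite strand, and whether the counting used strand is not given in the sources used here.

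**Figure D1:**
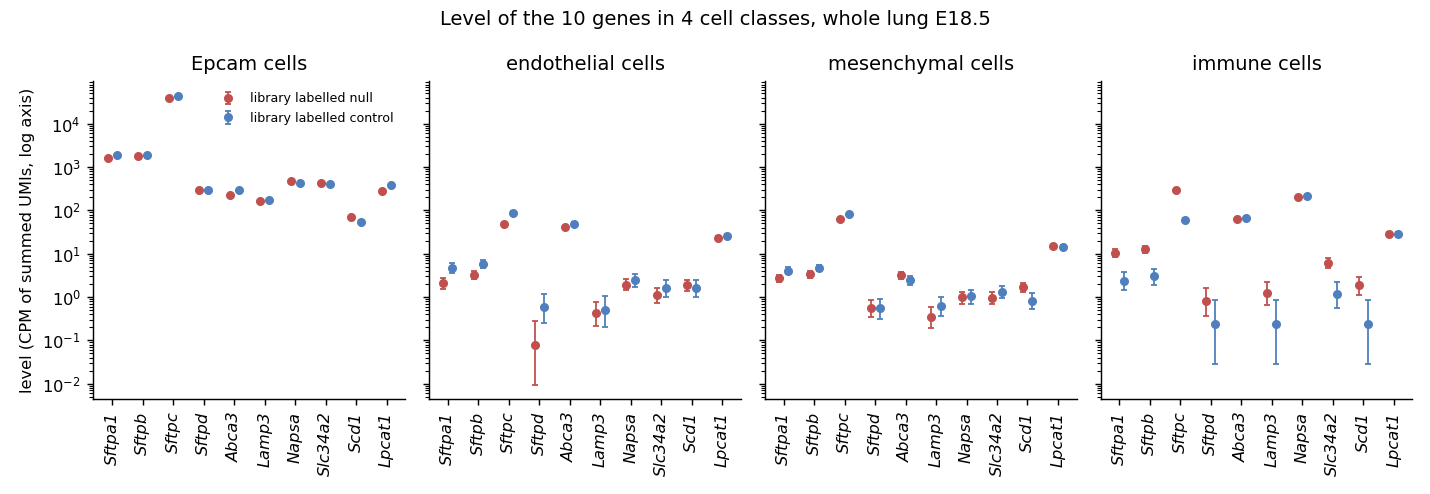
Level of each member in Epcam, endothelial, mesenchymal and immune cells of the libraries labelled null (red) and control (blue), in CPM of summed UMIs on a log axis, with 95% counting intervals. Sftpc is highest in the Epcam cells, at 38221 and 44506 CPM, and Abca3, Napsa and Lpcat1 stay above 20 CPM in some classes where Sftpd and Lamp3 are near or under 1 CPM.

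Clustering of the Epcam cells, with the members left out of the clustering genes, gave 9 clusters. Clusters 0 and 1 were called AT2-like from fixed markers and held 132 (32.8%) and 214 (37.7%) of the Epcam cells of the libraries labelled null and control. The first was led by Cd74, the second by Lyz1. The name of the Cd74-led cluster depended on the settings: with a naming score of at least 0.3 in place of 0.1, or at a resolution of 0.4, only 163 and 160 cells of both libraries were AT2-like in place of 346, and with gates 1 UMI higher or without Scrublet calls 164 and 160. AT1-like, airway secretory-like, ciliated-like and proliferating-like cells made up the rest. Cluster against rest is a description, since the cells were clustered on their own RNA.

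In AT2-like cells Sftpc was at 116854 and 113621 CPM, and its share of the median cell was 1238 and 1187 UMIs per 10000, with the middle 80% of cells between 525 and 1888 and between 507 and 1656. Sftpb was at 4376 and 3996 CPM and Sftpa1 at 4805 and 5023 CPM. Sftpa1 varied more from cell to cell: its 10th and 90th percentiles were 2.19 and 125 per 10000 UMIs in the library labelled null and 1.12 and 126 in the library labelled control. Scd1 had a median of 0.792 and 0 and a 90th percentile of 7.39 and 4.22 per 10000, and at this level a cell without a Scd1 UMI may still hold its RNA. At a common depth of 2000 UMIs per cell, an Sftpc UMI was found in 99.2% and 99.1% of AT2-like cells and an Sftpb UMI in 97.7% and 96.2%. An Abca3 UMI was found in 66.7% and 67.6% (97.0% and 97.7% without thinning) and an Scd1 UMI in 33 of 132 and 34 of 213 cells (56.1% and 49.1% without thinning).

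The Lyz1-led cluster held more of every member than the Cd74-led cluster in both libraries. Sftpa1 was at 7486 and 6857 CPM against 2093 and 3376 CPM, and Sftpc at 145455 and 130044 against 87922 and 98862. Scd1 differed most, at 363 and 267 CPM against 69.7 and 30.2 CPM. Slc34a2 was at 1863 and 1515 CPM against 768 and 636 CPM, while Napsa was at 1560 and 1097 against 1189 and 925 CPM and Lpcat1 at 813 and 890 against 595 and 682 CPM.

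**Figure D2:**
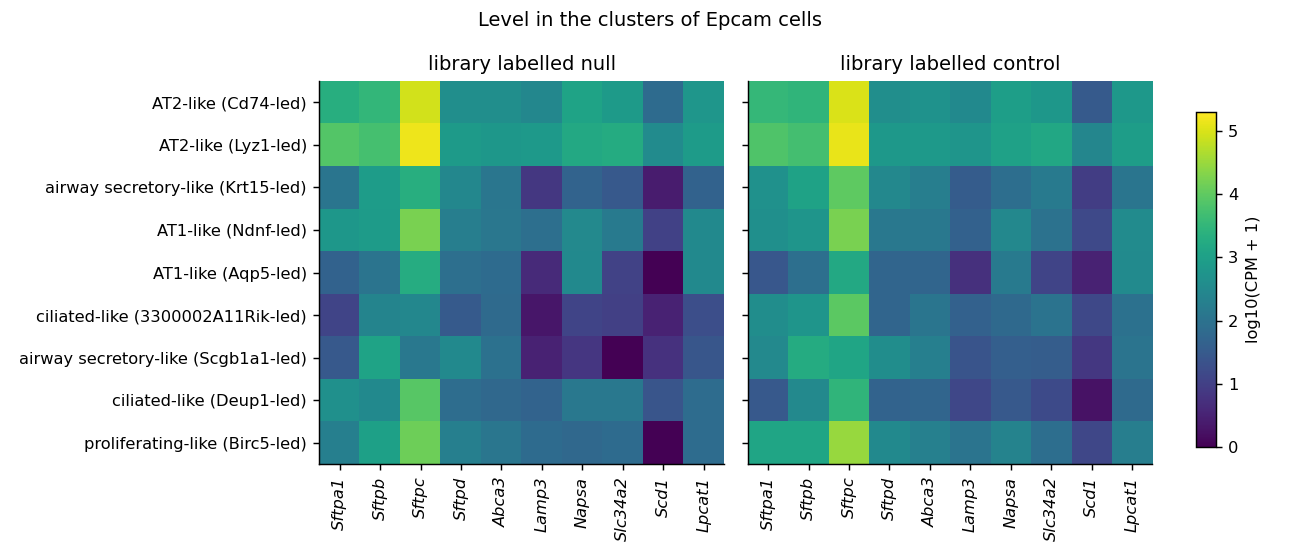
Level of each member in the 9 clusters of Epcam cells of the libraries labelled null and control, as log10 of CPM plus 1 (colour scale). Both AT2-like clusters are brightest, and Sftpb and Sftpd stay bright in the airway secretory-like clusters where Lamp3 and Scd1 are dark.

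The surfactant proteins did not share one pattern outside AT2-like cells. In airway secretory-like cells (110 and 104) Sftpb was at 1009 and 1342 CPM and Sftpd at 299.96 and 330.00 CPM, which were 57.5% and 72.4%, and 101% and 114%, of the levels in all Epcam cells. Sftpc was at 1316 and 7075 CPM there, 3.44% and 15.9% of the Epcam level. Its UMIs were held by few cells: 5 and 18 cells with at least 10 Sftpc UMIs carried 96.3% and 99.1% of them. Without those cells, a choice made after the levels were seen, Sftpc was at 52.6 and 93.8 CPM, Sftpb at 1025 and 1157 CPM and Sftpd at 297 and 380 CPM. At 2000 UMIs per cell, 57.3% and 67.3% of these cells had an Sftpb UMI (80.9% and 84.6% unthinned), against 13.6% and 35.6% for Sftpc (64 of 110 and 78 of 104 cells unthinned). In endothelial cells, which serve here as cells that should lack Sftpc, the thinned share was 10.0% (8.83 to 11.2) and 14.1% (12.5 to 15.9). The share in airway secretory-like cells, 13.6% (7.84 to 21.5) in the library labelled null and 35.6% (26.4 to 45.6) in the library labelled control, thus overlapped it in the former and lay above it in the latter. The latter includes the 18 cells of 10 or more Sftpc UMIs, and the share without them was not worked out. Their removal left 93.8 CPM, beside 67.9 CPM in endothelial cells of that library under 10 Sftpc UMIs and 89.2 CPM in all its endothelial cells. Leaving out cells by their Sftpc UMIs also sets what is left of Sftpc, so nothing is read from these levels. In the Scgb1a1-led cluster Sftpb, at 1213 and 1811 CPM, was above Sftpc, at 130 and 1335 CPM. There 1 of 38 and 2 of 29 cells had 10 or more Sftpc UMIs and held 59.3% and 95.6% of them, and without these cells Sftpc was at 54.7 and 69.8 CPM and Sftpb at 1250 and 1683 CPM. The same limit holds for the Sftpc level left in this cluster.

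Among the other members in airway secretory-like cells, Abca3 was at 107 and 185 CPM, 48.3% and 64.2% of the Epcam level, and Lamp3 at 4.69 and 30.6 CPM. Without the 5 and 18 cells of 10 or more Sftpc UMIs, Lamp3 was at 1.01 and 0.700 CPM, on 2 UMIs and 1 UMI. Sftpa1 was at 77.9 and 422 CPM in all airway secretory-like cells. Without those 5 and 18 cells it was at 25.8 and 220 CPM, 1.64% and 11.4% of the Epcam level. AT1-like cells were 33 and 112 cells of an Ndnf-led cluster and 48 and 49 cells of an Aqp5-led cluster, so the class was made up differently in each library. In AT1-like cells Lpcat1 was at 326 and 354 CPM, 114% and 93.8% of the Epcam level, and Napsa at 314 and 254 CPM, 64.4% and 60.7%. Lamp3 in AT1-like cells was at 44.1 and 34.0 CPM and Scd1 at 4.90 and 10.8 CPM. AT1-like cells held Sftpc at 9508 and 13281 CPM, 24.9% and 29.8% of the Epcam level, and in the Aqp5-led AT1-like cluster it was at 1907 and 1603 CPM. Of the 1157 Sftpc UMIs of the Aqp5-led cluster in the library labelled null, 545 were in 1 cell. There, 15 of 48 cells had 10 or more and held 91.8% of them. In all AT1-like cells, 35 of 81 and 68 of 161 cells with 10 or more Sftpc UMIs held 98.8% and 98.9% of the Sftpc UMIs, and a single cell of the library labelled null held 3774 of 11646. Without these cells Sftpc was at 243 and 315 CPM, Lamp3 at 0 and 1.19 CPM and Scd1 at 0 and 2.39 CPM, on 0 to 2 UMIs for the last pair of genes, where 0 UMIs allow up to 6.53 CPM by the exact Poisson interval. Lpcat1 was then at 290 and 332 CPM and Napsa at 230 and 153 CPM. The cut on Sftpc UMIs also sets the Sftpc level that is left. All 6 Scd1 UMIs of AT1-like cells of the library labelled null were in 1 cell.

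Outside the Epcam cells the members fell into groups by level. RNA freed from broken cells enters droplets in the proportions of its source, so each member was set against Sftpc. In endothelial cells Sftpc was at 48.4 CPM and 89.2 CPM, 0.127% and 0.201% of the Epcam level. In mesenchymal cells it was at 64.5 and 84.3 CPM, 0.169% and 0.189%. Without the 7 and 8 mesenchymal cells of 10 or more Sftpc UMIs it was at 54.1 and 76.9 CPM, 0.142% and 0.173%. The share of cells with an Sftpc UMI at 2000 UMIs was 10.0% and 14.1% in endothelial, 10.6% and 15.3% in mesenchymal and 10.50% and 11.7% in immune cells. Without thinning it was 36.0% and 41.5%, 35.9% and 41.9%, and 54.3% and 55.6%, at median depths of 8294 and 7420, 8278 and 6969, and 14748 and 14662 UMIs. Sftpa1, Sftpb, Sftpc, Sftpd, Lamp3 and Slc34a2 had median levels of 0.158% and 0.269% of the Epcam level in endothelial cells and 0.188% and 0.232% in mesenchymal cells. In endothelial cells they ran from 0.0266% to 0.266% and from 0.201% to 0.394%. These are the members left without Abca3, Napsa, Scd1 and Lpcat1, which stood higher in some class, so the grouping is a description. Without the 1 and 2 endothelial cells of 10 or more Sftpc UMIs, their medians in endothelial cells were 0.152% and 0.196%. The ranges were then 0.0266% to 0.266% and 0.126% to 0.269%. Without such mesenchymal cells the medians were 0.161% and 0.210%. Relative to Sftpc, Sftpa1 in endothelial cells was 1.06-fold (0.790 to 1.38) and 1.23-fold (0.946 to 1.56) of its ratio in Epcam cells. Sftpb was 1.45-fold and 1.57-fold, Slc34a2 2.03-fold and 1.96-fold and Napsa 3.15-fold and 2.96-fold, all with intervals above 1 in both libraries. These ratios include the cells of 10 or more Sftpc UMIs. In the library labelled control 2 such endothelial cells held 293 of 1222 Sftpc UMIs. Without them Slc34a2 had 15 UMIs in place of 22 and Sftpb 64 in place of 80. Whether the intervals then stay above 1 was not tested. Lamp3 was 2.10-fold (1.05 to 3.77) and 1.46-fold (0.586 to 3.01). Sftpd was 0.210-fold (0.0254 to 0.760) on 2 UMIs in the library labelled null and 1.01-fold (0.434 to 1.99) in the other. In mesenchymal cells the ratios of Napsa, Sftpb and Slc34a2 were nearer to 1, and that of Lamp3 was 1.27-fold (0.695 to 2.15) and 1.88-fold (1.11 to 2.98). Napsa was 1.19-fold (0.847 to 1.63) and 1.31-fold (0.883 to 1.87) there, Sftpb 1.13-fold (0.946 to 1.34) and 1.33-fold (1.11 to 1.58), and Slc34a2 1.32-fold (0.930 to 1.81) and 1.70-fold (1.20 to 2.34).

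The immune cells of the library labelled null had 296 CPM of Sftpc, against 59.6 CPM in the library labelled control. A single cell held 2363 of the 2857 Sftpc UMIs. Without it, a choice made after the levels were seen, the level was 51.3 CPM, and Sftpa1 was at 2.39 CPM in place of 10.5 CPM and Sftpb at 2.91 in place of 12.5 CPM. Sftpa1 and Sftpb in the library labelled control were at 2.40 and 2.99 CPM.

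Abca3 was found in endothelial and immune cells at a far larger part of its Epcam level than the surfactant proteins. It was at 41.7 CPM (39.2 to 44.3) and 49.7 CPM (46.0 to 53.5) in endothelial cells, 18.9% and 17.3% of the Epcam level. In immune cells it was at 62.9 and 65.4 CPM, 28.5% and 22.7% of that level, but in mesenchymal cells only at 3.18 and 2.49 CPM. Relative to Sftpc, Abca3 in endothelial cells was 149-fold and 86.1-fold of its ratio in Epcam cells. The UMIs were spread over many cells: 803 of 2558 and 517 of 1612 endothelial cells had at least 1, and the highest cell had 5 and 4. Levels in subsets of endothelial cells, chosen after the class levels were seen, lay between 36.0 and 63.4 CPM. Cells with at least 2 Car4 UMIs had 38.7 and 36.0 CPM, cells with a Gja5 UMI 44.2 and 58.3 CPM and cells with an Mki67 UMI 41.5 and 38.6 CPM. Prox1 cells had 63.4 CPM (48.9 to 81.001) and 57.2 CPM (37.7 to 83.2).

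The sorted endothelial cells, from which EpCAM+ cells had been removed, also held Abca3. Abca3 was at 29.9 CPM at E13.5 and 20.4 CPM at E15.5, at 45.3 CPM in the E18.5 library and was at 25.2 CPM in the P8 library. Lpcat1 was at 22.4, 20.2, 25.3 and 37.4 CPM in the same order. Sftpc was at 0.748 and 0.531 CPM at E13.5 and E15.5, and at 48.2 and 18.7 CPM at E18.5 and P8. Abca3 was therefore above Sftpc at E13.5, E15.5 and P8, and close to it at E18.5. The E13.5 library had only 177 endothelial cells in this gate. The few Epcam cells left in the sorts (58, 32, 27 and 4) had Sftpc at 266, 5877, 71063 and 117598 CPM.

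**Figure D3:**
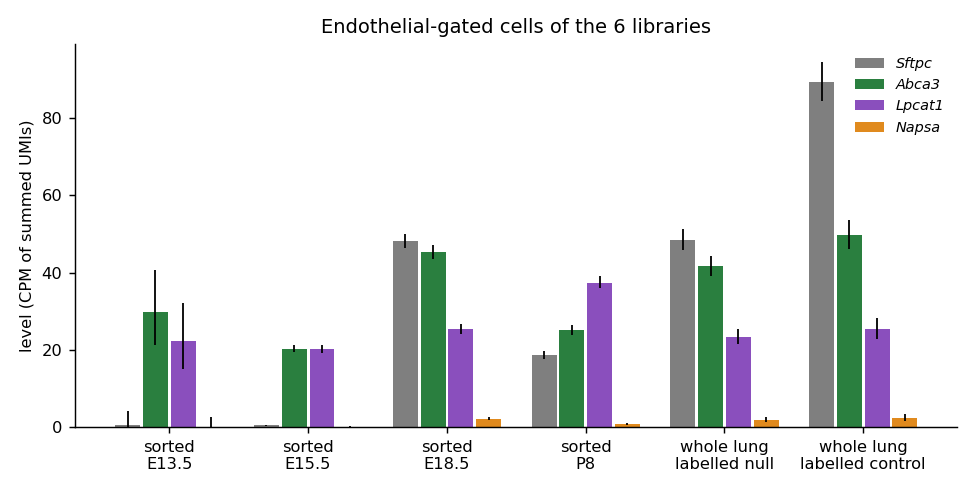
Level of Sftpc, Abca3, Lpcat1 and Napsa in endothelial cells of the 4 sorted libraries and the 2 whole-lung libraries, as bars of CPM from 0 with 95% counting intervals. Abca3 and Lpcat1 are present in all 6 libraries, from 20.2 to 49.7 CPM, while Sftpc is under 1 CPM at E13.5 and E15.5.

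Napsa was far higher in immune cells than in the other classes outside the epithelium. It was at 204 and 217 CPM in immune cells, 41.9% and 51.8% of the Epcam level, at 1.95 and 2.48 CPM in endothelial cells and at 0.983 and 1.04 CPM in mesenchymal cells. A Napsa UMI was found in 28.9% and 33.0% of immune cells at 2000 UMIs (76.1% and 80.3% unthinned), against 0.394% and 0.435% of endothelial cells. In subsets of immune cells, again chosen after the class levels were seen, cells with a UMI of the monocyte receptor gene Ccr2 had 228 and 242 CPM, against 26.8 and 45.8 CPM in cells without one. Cells with a UMI of the macrophage gene C1qa had 120 and 85.2 CPM, against 225 and 243 CPM without. Abca3 in immune cells also stood higher with Ccr2, at 67.4 and 67.5 CPM against 28.6 and 51.3 CPM.

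Lpcat1 was found in every class. It was at 23.4 and 25.5 CPM in endothelial cells, 14.9 and 14.3 CPM in mesenchymal cells and 28.8 and 27.9 CPM in immune cells, which were 3.78% to 10.1% of the Epcam levels. Scd1 was at 1.87 and 1.61 CPM in endothelial cells, 2.68% and 2.996% of the Epcam level, and its counts were low, at 47 and 22 UMIs. The SoupX-adjusted values kept Abca3 at 38.7 and 32.0 CPM in endothelial cells and Napsa at 230 and 286 CPM in immune cells, and set Sftpc to 0 in endothelial cells of both libraries. They kept Lpcat1 at 16.9 CPM in endothelial cells of the library labelled null but at 0.491 CPM in those of the library labelled control. In mesenchymal cells they gave 7.52 and 0.272 CPM of Lpcat1 and in immune cells 23.8 and 0.976 CPM, so that it was under 1 CPM in all 3 classes of the library labelled control.

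**Figure D4:**
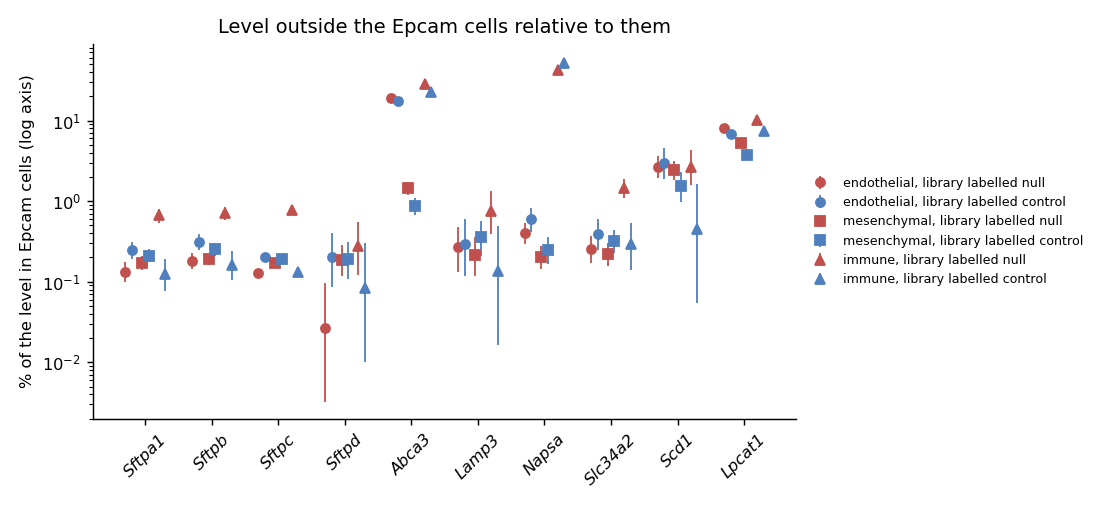
Level of each member in endothelial (circles), mesenchymal (squares) and immune cells (triangles) as percent of its level in Epcam cells of the same library, on a log axis with 95% counting intervals. Sftpc lies between 0.127% and 0.774% in every class, its highest value, in immune cells of the library labelled null, being 0.134% without a single cell, while Abca3 reaches 28.5%, Napsa 51.8% and Lpcat1 10.1%.

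Between the libraries, the members were compared first in all Epcam cells. Of the 10 members, 0 were higher and 0 were lower by 1.5-fold in the library labelled null, beside 1.53% of 2742 genes higher and 0.948% lower, so a count of 0 is near the share of all genes. The members' median log2 ratio of the library labelled null over the library labelled control was -0.08, and that of all genes of at least 50 CPM was 0.02. Lpcat1 (-0.40, -0.48 to -0.32) and Abca3 (-0.38, -0.47 to -0.29) stood lowest and Scd1 (0.37, 0.20 to 0.55) highest. Of all genes, 3.03% stood below Lpcat1, 3.57% below Abca3, 6.60% below Sftpa1 and 95.8% below Scd1. Sftpc was at -0.22 (-0.23 to -0.21) and Sftpa1 at -0.29 (-0.33 to -0.26). The share of thinned Epcam cells with an Sftpc UMI was 53.6% (48.6 to 58.6) and 66.0% (62.0 to 69.9), or 82.1% and 89.8% unthinned at median depths of 17390 and 13409 UMIs. Thinning left out 1 and 2 shallower cells. The libraries also held different shares of cell types among the Epcam cells. AT1-like cells were 20.1% (16.3 to 24.4) and 28.4% (24.7 to 32.3), a gap that lay in the Ndnf-led cluster. Airway secretory-like cells were 27.4% (23.1 to 32.0) and 18.3% (15.2 to 21.8), and AT2-like cells 32.8% (28.3 to 37.7) and 37.7% (33.7 to 41.9). These intervals cover counting error only and not the spread between libraries. The part of this make-up in the ratios of Epcam cells was not tested.

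In AT2-like cells 1 member, Scd1, was higher by 1.5-fold, at 217 and 142 CPM (log2 ratio 0.61, 0.42 to 0.80), and 0 were lower, beside 2.49% of 2331 genes higher and 2.36% lower. Sftpc was at 0.04 (0.03 to 0.05), Napsa at 0.45, Slc34a2 at 0.33, Abca3 at -0.20 and Lpcat1 at -0.15. The members' median was 0.13 and that of all genes was -0.004. With SoupX-adjusted values the members' median was -0.45 in Epcam cells and -0.28 in AT2-like cells. That of all genes of at least 50 CPM by counts was 0.05 and 0.14. Epcam, which is not a member, went from -0.03 by counts to -0.42 in Epcam cells and from -0.14 to -0.54 in AT2-like cells. By the adjusted values 3 members were lower by 1.5-fold in Epcam cells, Sftpa1, Abca3 and Lpcat1, beside 4.82% of genes lower and 11.5% higher. In AT2-like cells Scd1 was then at 0.22 and no longer past 1.5-fold, and Abca3, at -0.59, was lower by 1.5-fold, beside 8.87% of genes lower and 22% higher. From counts in the Lyz1-led cluster alone, Scd1 was at 0.44 and 0 members were past 1.5-fold, beside 3.58% of genes higher and 6.58% lower. In the Cd74-led cluster alone, Scd1 was higher (1.19, at 69.7 and 30.2 CPM, over 50 CPM in a single library) and Sftpa1 was lower (-0.69, at 2093 and 3376 CPM), beside 3.7% of genes higher and 3.15% lower, so the count of 0 lower in the pooled AT2-like cells does not hold in each cluster. The shift of the SoupX-adjusted ratios went with the larger subtraction in the library labelled control, and its part in them was not tested. The ratios of the Lyz1-led and Cd74-led clusters alone are from unadjusted counts.

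**Figure D5:**
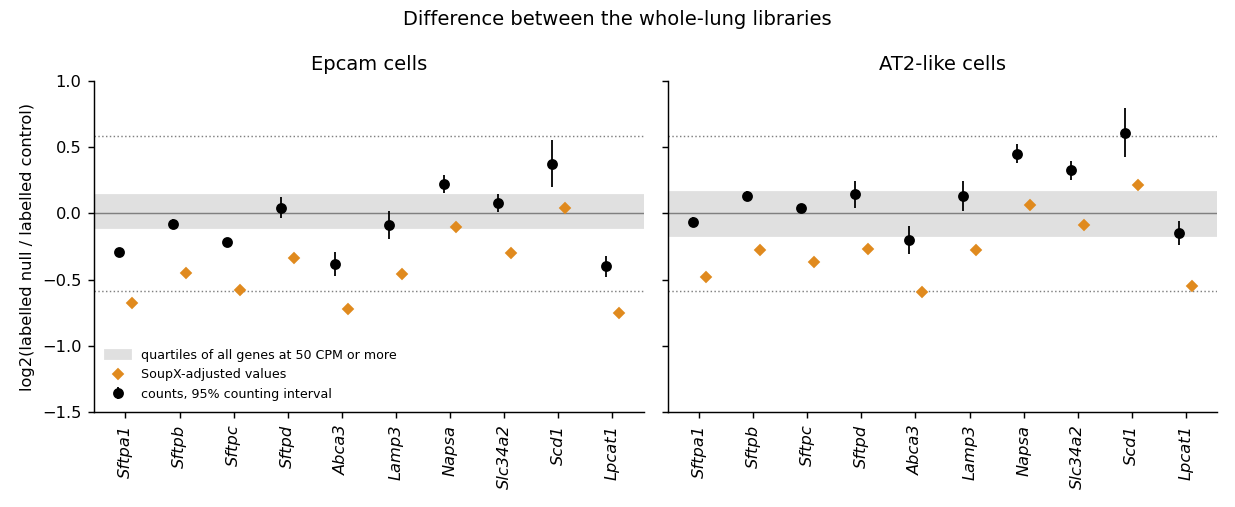
Log2 ratio of the library labelled null over the library labelled control for each member in Epcam cells and AT2-like cells, from counts (black, 95% counting intervals) and from SoupX-adjusted values (orange). The grey band runs from the lower to the upper quartile of the count ratios of genes at 50 CPM or more, and dotted lines mark 1.5-fold. The band does not hold for the orange points. SoupX-adjusted quartiles of the same genes were -0.19 to 0.36 in Epcam cells and -0.21 to 0.59 in AT2-like cells. The counts of 9 members in AT2-like cells lie within 1.5-fold, Scd1 being above it.

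In airway secretory-like cells 8 of the 10 members reached 50 CPM in either library. Of these, 6 were lower and 0 higher by at least 1.5-fold in the library labelled null, beside 4.32% of 2410 genes lower and 1.08% higher. Slc34a2 (17.4 and 108 CPM), Napsa (30.0 and 66.7 CPM) and Lpcat1 (37.1 and 112 CPM) reached 50 CPM only in the library labelled control, where they were high, so the count is a description. Sftpc stood at a log2 ratio of -2.43 and Slc34a2 at -2.61, while Sftpb was at -0.41 and Sftpd at -0.14 (-0.30 to 0.02). The cells of 10 or more Sftpc UMIs were 5 of 110 and 18 of 104. Without them 6 members reached 50 CPM and 3 of these were lower, Sftpa1 at 25.8 and 220 CPM, Sftpc at 52.6 and 93.8 CPM and Lpcat1 at 30.3 and 53.9 CPM, beside 3.29% of genes lower and 1.6% higher. The cells were left out by their Sftpc UMIs, which also sets what is left of Sftpc, and Sftpa1 and Lpcat1 reached 50 CPM only in the library labelled control, so nothing is read from this count. Abca3, at 102 and 136 CPM, was then within 1.5-fold, and Napsa, at 7.59 and 22.4 CPM, and Slc34a2, at 5.06 and 19.6 CPM, were under 50 CPM in both libraries. In ciliated-like cells 8 members reached 50 CPM and the calls went both ways. Napsa was higher (71.4 and 45.9 CPM), and Sftpb (285 and 437 CPM) and Lpcat1 (46.3 and 79.1 CPM) were lower, beside 3.1% of genes higher and 1.83% lower, Napsa and Lpcat1 being over 50 CPM in a single library. Without the 8 and 17 ciliated-like cells of 10 or more Sftpc UMIs, Napsa was at 20.8 and 3.30 CPM, Lpcat1 at 26.5 and 24.4 CPM and Sftpb at 174 and 257 CPM. Sftpb was then within 1.5-fold and Napsa and Lpcat1 were under 50 CPM in both libraries, so none of these calls was left. In AT1-like cells 8 members reached 50 CPM and 0 were past 1.5-fold in either direction, beside 4.5% of genes higher and 3.64% lower. Outside the Epcam cells few members reached 50 CPM in either library. In endothelial cells it was 1, Sftpc, which reached 50 CPM only in the library labelled control (48.4 and 89.2 CPM) and stood at a log2 ratio of -0.88, beside 0.934% of genes lower and 1.2% higher. In the library labelled control 2 cells held 293 of the 1222 Sftpc UMIs. Without cells of 10 or more Sftpc UMIs the levels were 47.1 and 67.9 CPM and the log2 ratio was -0.52, within 1.5-fold, beside 0.873% of genes lower and 1.2% higher. In mesenchymal cells it was also Sftpc, at -0.38 and thus within 1.5-fold, beside 1.16% of genes lower and 2.13% higher. In immune cells Abca3 and Napsa were within 1.5-fold, at -0.06 and -0.08, and Sftpc was higher at 2.30 with the single cell described above, beside 2.08% of genes higher and 0.494% lower. Without that cell Sftpc was at -0.22 and 0 members were past 1.5-fold, beside 2.04% of genes higher and 0.494% lower.

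Other genes of surfactant production were compared in AT2-like cells by lists. Of 20 genes of lipid synthesis, 14 reached 50 CPM, and of these 1 was higher and 0 lower by 1.5-fold, beside 2.49% of all genes higher and 2.36% lower. It was Elovl1, a fatty acid elongase, at 84.4 and 41.2 CPM, which reached 50 CPM only in the library where it was higher. Fasn, the fatty acid synthase, was at 284 and 233 CPM in AT2-like cells, and Scd2, the second desaturase, at 593 and 636 CPM. In all Epcam cells 8 of the 20 reached 50 CPM. There Pla2g1b, a secreted phospholipase, was lower, at 131 and 229 CPM, and Elovl1, again over 50 CPM in a single library, was at 53.6 and 35.3 CPM, beside 1.53% of genes higher and 0.948% lower. In AT2-like cells, of 16 genes of lamellar bodies and related organelles, 7 reached 50 CPM and 0 differed by 1.5-fold. Ctsh, a protease that processes surfactant proteins B and C, was at 3579 and 2659 CPM. All 12 transcription factors of AT2 cells reached 50 CPM, and 1 of them, Foxa2, was lower, at 45.5 and 71.7 CPM, over 50 CPM in the library labelled control only, beside 2.36% of all genes lower. Nkx2-1 was at 459 and 546 CPM in AT2-like cells. In all Epcam cells 0 of the 12 were past 1.5-fold, and Foxa2 was at 71.7 and 79.4 CPM. Of 10 receptors in AT2-like cells, 4 reached 50 CPM and 0 differed by 1.5-fold.

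Across thinned Epcam cells, the genes whose level went most closely with the summed members were Dlk1 (mean Pearson r of the libraries 0.79), Fabp5 (0.78), Meg3 (0.67), Npc2 (0.64) and Cxcl15 (0.59), over 401 and 565 cells and 3974 genes. The cells of a library share depth and free RNA, so these are a description. Among member pairs the median r was 0.48 and 0.42 in Epcam cells and 0.29 and 0.19 in AT2-like cells, over 45 pairs.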

How the data were processed

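The authors made 10x 3′ v3 libraries, aligned reads to mm10 with Cell Ranger (3.1.0 or 3.0.2 in the file headers) and deposited unnormalized UMI counts. Expected counts, which the authors deposited for both whole lungs, are counts that SoupX had adjusted, here summed unrounded with no count model. The data names give the whole-lung genotypes the other way round from the labels, which set the groups. The members and gene lists were chosen with earlier results of these data known.

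Cells with at least 700 genes and 0.5% to 10% mitochondrial UMIs (SoupX-adjusted values in the whole lungs) were kept and classed from raw UMIs. Doublets were not removed in the main analysis beyond setting aside cells of several classes (762 and 628 cells, of which Scrublet called 47.9% and 47.9%). Levels are summed UMIs in CPM with exact Poisson intervals. Ratios between libraries use CPM plus 0.5 with a conditional binomial interval, and shares have Clopper-Pearson intervals. Cells were thinned to 2000 UMIs for shares. Epcam cells were clustered on Pearson residuals of 3000 variable genes (20 components, 20 neighbours, Louvain resolution 0.8, igraph 0.11.9), and clusters were named from markers, with the score of 0.1 set after 0.3 had left the Cd74-led cluster unnamed. Genes of at least 50 CPM in either library were compared by a fold of 1.5, with no test, since each group had 1 library. Named genes are the 10 members, the leading genes of the lists and the most alike genes. The ratio, level and thinning steps were tested on simulated data. The simulated counts were independent draws, without the uneven spread of UMIs over cells seen here. They therefore do not check the intervals against that spread. TMM factors came from edgeR 4.0.16.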

Additional observations from a re-analysis of the deposited data

How the results depend on the processing

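Of 98 alternative values, 61 stayed within the counting interval of the value reported or, for counts of members, within 1.5 times, 36 moved beyond it and 1 changed sign. Some of the 61 could not move. A fold of 2 cannot raise a count that is 0 at 1.5-fold, and the choice of background genes does not enter the counts of members. A pseudocount of 5 CPM hardly enters the Sftpc ratios at its level in Epcam and AT2-like cells. Under the other alternatives run, the 0 members higher by 1.5-fold in Epcam cells stayed at 0. The 0 lower stayed at 0 except with SoupX-adjusted values, which gave 3, beside 4.82% of genes lower and 11.5% higher. The Sftpc log2 ratio in Epcam cells (-0.22) was -0.28 with the filter on raw counts, -0.28 with cells of more than 1 gate kept, -0.25 with gates 1 UMI higher, -0.23 without Scrublet calls, -0.58 with SoupX-adjusted values, -0.18 as the mean of per-cell CPM, -0.23 without the members in the total, -0.21 with TMM, -0.20 with median-of-ratios scaling and -0.27 without barcodes of both libraries. In AT2-like cells (0.04) it was reversed only with SoupX-adjusted values, at -0.37, and the cause was not tested. There it was 0.075 with the filter on raw counts, 0.019 with cells of more than 1 gate, 0.17 with higher gates, 0.15 without Scrublet calls, 0.082 as the per-cell mean, 0.10 with TMM and 0.10 with median-of-ratios scaling. It was 0.15 at resolution 0.4, 0.056 with log-normalized clustering, 0.16 with the naming score of 0.3, which was tried first and replaced by 0.1 once the cluster names had been seen, and 0.053 without barcodes of both libraries, a setting chosen after the data were seen. With higher gates, without Scrublet calls, at resolution 0.4 and with the score of 0.3 the AT2-like cells fell from 346 to 164, 160, 160 and 163, so these values are of a smaller class. The endothelial Sftpc level, 0.127% and 0.201% of the Epcam level in the libraries labelled null and control, was 1.12% and 3.16% with cells of more than 1 gate kept, and 0% in both with SoupX-adjusted values. It was 0.159% in the library labelled null with higher gates and 0.153% in the library labelled control without 2 endothelial cells of 10 or more Sftpc UMIs. The share of thinned Epcam cells with an Sftpc UMI was 48.3% and 61.7% with cells of more than 1 gate kept. Without cells of 10 or more Sftpc UMIs, the members lower in airway secretory-like cells went from 6 of 8 at 50 CPM to 3 of 6. Of all genes, 4.32% and 3.29% were lower there. Those lower in endothelial cells went from 1 to 0, beside 0.934% and 0.873% of genes. Those higher in immune cells went from 1 to 0, beside 2.08% and 2.04% of genes. In AT2-like cells the 1 member higher (2.49% of genes) became 0 with SoupX-adjusted values (22%) and with the naming score of 0.3 (3.58%). The 0 lower (2.36% of genes) became 1 with SoupX-adjusted values (8.87%). Leaving out cells by their Sftpc UMIs was also chosen after the data were seen, as was the score of 0.1 behind the 1 member higher. No paired analysis was possible because each group had 1 library, which also left no replicate to leave out.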
